A study of Sus scrofa with 37 samples.

Results

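The genes described here regulate satellite cells, the resident stem cells of skeletal muscle, and the myoblasts that they give rise to. Of 9 genes chosen by symbol (PAX7, MYF5, MYF6, MYOD1, MYOG, BARX2, TBX1, MYMK and CDH15), 7 had a row among the 9418 rows of the deposited count table, and all 7 passed the filter on low counts that left 9411 genes for testing. MYF5 and MYMK are not analysed here. The tissue was skeletal muscle from Bama minipigs, a small breed of pig, after contusion, a blunt crush of the muscle. Whole muscle RNA was sequenced in 4 libraries at each of 7 times after injury, every 4 h from 4 to 24 h and then at 48 h, and in 9 libraries titled as controls. The design text gives 8 minipigs for these 37 libraries, and no label ties a library to an animal, so each p-value measures spread between libraries that may come from the same animal. Mechanical damage is the labelled treatment of every library, controls included. How the control muscle was handled, its anatomical site and the age of the animals are not given in the sources used here.

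A satellite cell at rest lies between the muscle fibre and its sheath and carries the transcription factor PAX7. After injury such cells leave rest, divide as myoblasts under the basic helix-loop-helix factors MYF5 and MYOD1, and then exit the cell cycle, differentiate under MYOG and fuse into fibres with the help of the membrane protein MYMK. MYF6, the remaining factor of that family, is mainly a gene of differentiated fibres. BARX2 is a homeobox factor of developing and regenerating muscle, and TBX1 is a T-box factor best known from the muscles of the head and neck. CDH15 encodes M-cadherin, the adhesion molecule between a satellite cell and its fibre. In whole muscle, fewer cells of a type and less RNA per cell cannot be told apart.

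In the pig genome build Sscrofa11.1, PAX7 spans chr6:77160827-77268626 and CDH15 chr6:636350-652260. MYOD1 lies at chr2:41422522-41424236, MYOG at chr9:113783233-113785312 and TBX1 at chr14:51289376-51297110. The span of MYF6, chr5:100762918-100764771, and that of BARX2, chr9:56261394-56340992, each overlap 1 other annotated gene. These overlaps are of whole gene spans, and exons were not compared. As the strand setting of the counting is also not stated, it is not known whether counts of MYF6 and BARX2 include reads of those overlapping genes.

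Expression is given as CPM, counts per M counts after scaling by the trimmed mean of M values (TMM). Log2 fold changes carry their standard error, and adjusted p-values are from edgeR's quasi-likelihood test with Benjamini-Hochberg adjustment over all genes tested, with a call made under 0.05. Column totals ran from 9.86 to 22.9 M counts, and 3 libraries had more than 20 M. A floor of 3 counts corresponded to between 0.108 and 0.378 CPM. The libraries also fell into 5 sets by column total, C1QBP, NDUFAF8 and ND6, which earlier work on these data defined and no label names. Low NDUFAF8 marked set 2, to which 3 of the 4 libraries from 4 h belonged but no control. Totals above 20 M marked set 3, made up of 1 library from 4 h and 2 from 24 h. All 4 libraries from 16 h fell into set 1, along with 3 from 8 h and 2 controls. All 4 from 48 h fell into set 5, along with 3 controls, 1 library from 8 h and 1 from 24 h. Successive times from 4 to 20 h had no set in common, so a difference in those steps is also one between sets.

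The controls were not alike in genes of body position. HOXC8, a homeobox gene whose expression marks position along the trunk, was at 0.393 to 1.92 CPM in control replicates 1, 2, 3, 4, 8 and 9. It was at 15.4 to 39.4 CPM in control replicates 5, 6 and 7, and at 5.07 to 35.4 CPM in the 28 injured libraries. The 6 controls low in HOXC8 were thus below all other libraries. Among them HOXA10, another homeobox gene of position, was at 27.4 to 44.7 CPM in replicates 1, 3, 4 and 8 and at most 0.365 CPM in replicates 2 and 9. MYH7, the myosin heavy chain of slow fibres, had a median of 24786 CPM in the 6 controls low in HOXC8, 6585 CPM in the other 3 and 2751 CPM in the injured libraries. Site and injury cannot be told apart in comparisons with those 6 controls, so the calls of the members against the controls are also given against replicates 5, 6 and 7 alone. That split was chosen after the data were seen. Replicates 5, 6 and 7 did not match the injured libraries in every position gene. HOXA10 was at 0 CPM in them and at 0.117 to 13.9 CPM in the injured libraries. HOXC10 was at 7.03 to 7.62 CPM in them, and its median in the injured libraries was 24.4 CPM. Site and injury thus cannot be fully told apart there either.

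Against all 9 controls, BARX2 and TBX1 were lower and MYF6 was higher over most of the time course, whereas MYOD1 and MYOG moved at particular times and PAX7 and CDH15 passed at 1 time each. In order of time, from 4 to 48 h, 3, 5, 3, 3, 4, 6 and 2 of the 7 members were called, where 18.3%, 54%, 31%, 53.1%, 51.5%, 53.9% and 20.3% of all genes were called. These counts are not far from what the share over all genes gives for 7 genes. BARX2 is among the members called from 4 to 24 h, and as given below its row is present through controls in which it is high. The counts at those times are thus not free of that selection. Against the 3 controls 1, 3, 2, 3, 4, 4 and 0 members were called, where 6.95%, 43.4%, 12.6%, 45.2%, 42.1%, 42.7% and 10.3% of all genes were. At 48 h no member passed an unadjusted p of 0.05 against those 3 either, by edgeR, the tool used for that comparison. In a test of any difference among the 8 groups, edgeR called 6 of the 7 members, all but PAX7, where 83.2% of all genes were called. DESeq2 called PAX7 too (DESeq2 adjusted p = 0.0443). With the 3 controls edgeR called 5, all but PAX7 and CDH15, where 78.2% of all genes were called. In the same order, the libraries of 2, 1, 3, 3, 3, 3 and 0 members did not overlap the 9 controls, as held for 4.73%, 26%, 10.5%, 33.1%, 26%, 31.2% and 2.23% of all genes. BARX2 is among these members at 4, 12, 16, 20 and 24 h.

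**Figure D1:**
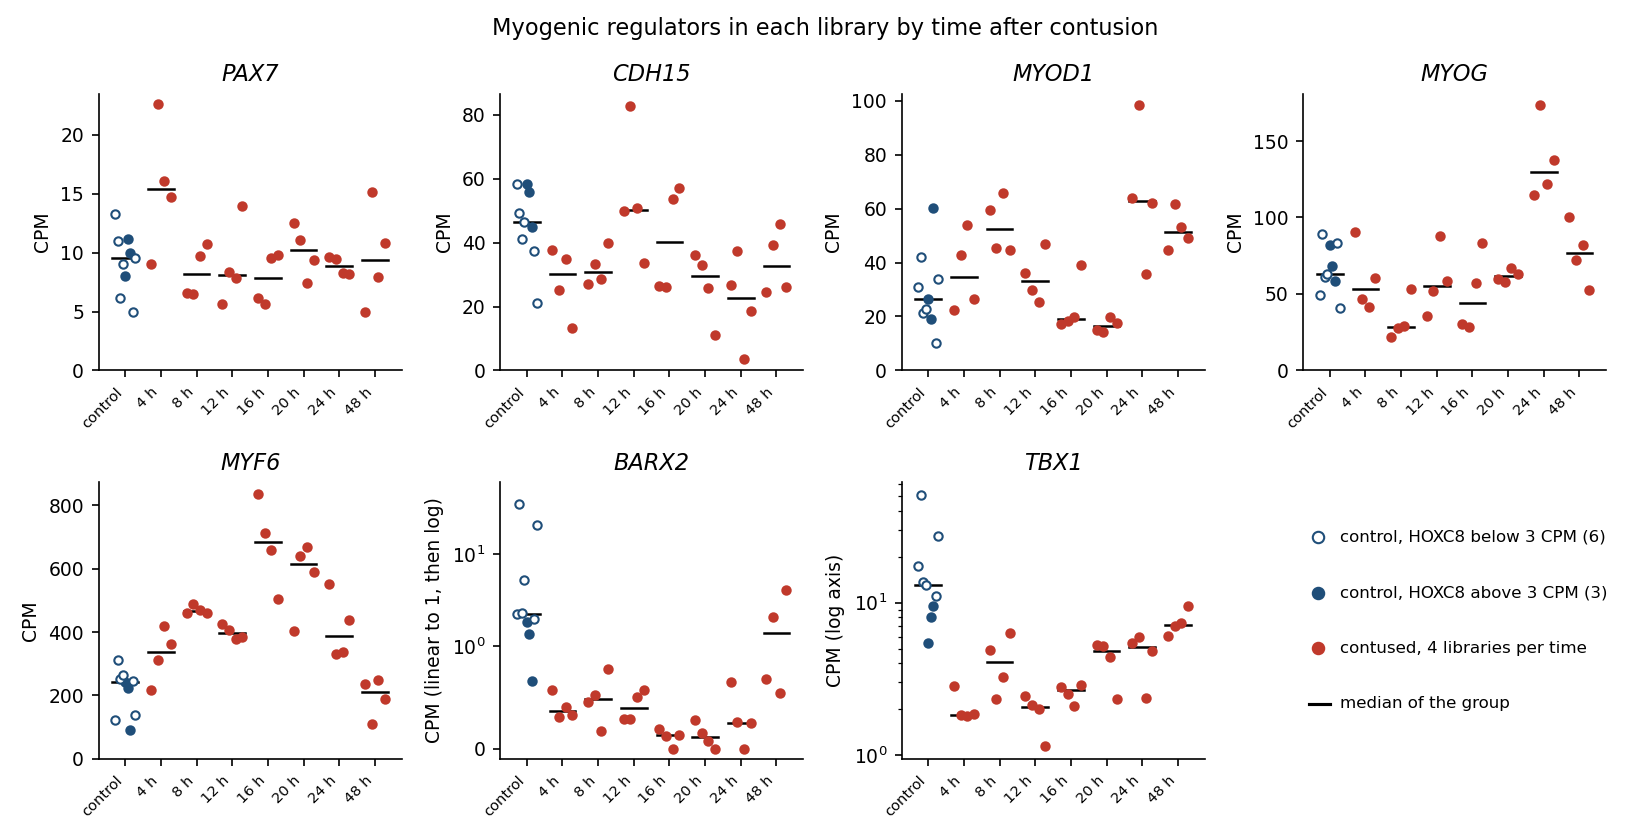
CPM of the 7 genes in each library (points) by group, with the group median (line); the axis of BARX2 is linear to 1 CPM and logarithmic above, and that of TBX1 is logarithmic. MYF6 stands above the controls from 8 to 24 h, MYOD1 and MYOG are high at 24 h, and BARX2 and TBX1 are highest in control libraries low in HOXC8 (open circles).

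PAX7, the factor that maintains the satellite cell pool, was high at 4 h and near the control level from then on. The 9 controls ran from 5.00 to 13.3 CPM with a median of 9.51 CPM. At 4 h the libraries held 9.03, 22.6, 16.1 and 14.7 CPM, 3 of them above every control. PAX7 was called higher at 4 h, with a log2 change of 0.76 ± 0.25 (edgeR adjusted p = 0.0364). The change at 4 h against the 3 controls was 0.68 ± 0.33 and did not pass (edgeR adjusted p = 0.205). Leaving out 4 h replicate 2, the highest library, brought it to 0.52 (edgeR adjusted p = 0.241), and leaving out 4 h replicates 3 or 4 or control replicates 3 or 8 also ended the call. With the 5 library sets as a term it was 0.69 (edgeR adjusted p = 0.272), and time and set cannot be told apart at 4 h. Only 2.75% of all genes were called at 4 h with that term. The call also ended without set 2 or set 3, with column totals and in a fit of the compared groups alone.

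From 4 to 8 h PAX7 fell by 0.90 ± 0.31 on the log2 scale (edgeR adjusted p = 0.0271). At 8 h the libraries held 6.60, 6.51, 9.74 and 10.7 CPM, and 2 of them lay below all 4 h libraries. That fall was not called without 4 h replicate 2 (edgeR adjusted p = 0.110) or without 8 h replicates 1 or 2. It was also not called with the sets as a term (-1.07, edgeR adjusted p = 0.499), without set 2 or set 3, or with the compared groups alone. With the sets as a term 0 of 9411 genes were called in that step, so that loss is not particular to PAX7. Without set 2, 1.36% of all genes were called. At 12 h the values were 5.66, 8.38, 7.82 and 14.0 CPM, and at 16 h they were 6.17, 5.65, 9.58 and 9.76 CPM. Of these, 1 library at 12 h lay above the control range and the others inside it. The 20 h libraries held 12.5, 11.0, 7.41 and 9.35 CPM, those at 24 h 9.63, 9.46, 8.29 and 8.21 CPM, and those at 48 h 4.97, 15.1, 7.95 and 10.8 CPM. The log2 changes from control between 8 and 48 h were within -0.25 and 0.12, each with a standard error of 0.26 or 0.27. In the order of group means, from 15.6 CPM at 4 h to 7.79 CPM at 16 h, all 7 pairs of neighbours overlapped, and the test over all groups gave an edgeR adjusted p of 0.0676.

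CDH15, the M-cadherin of the contact between satellite cell and fibre, ran from 21.2 to 58.4 CPM in the controls with a median of 46.5 CPM. At 4 h it stood at 37.7, 25.3, 34.8 and 13.4 CPM, and the 8 h libraries held 26.9, 33.2, 28.5 and 39.8 CPM. At 12 h it held 49.9, 82.7, 50.8 and 33.7 CPM, with 1 library above all controls, and at 16 h 26.4, 26.2, 53.7 and 57.0 CPM. None of these times was called. At 20 h the libraries were at 36.2, 33.1, 25.7 and 11.1 CPM, and the change of -0.79 ± 0.38 did not pass (edgeR adjusted p = 0.0757). It was called without control replicate 9 (edgeR adjusted p = 0.0456) and in a fit of the compared groups alone (edgeR adjusted p = 0.0335). At 24 h they were at 26.7, 37.3, 3.50 and 18.6 CPM, 2 of them below every control, and CDH15 was called lower by a log2 change of -1.09 ± 0.38 (edgeR adjusted p = 0.0162). That call held against the 3 controls, at -1.30 ± 0.47 with all 4 libraries below them (edgeR adjusted p = 0.0294), but ended without 24 h replicate 3, at -0.74 (edgeR adjusted p = 0.0734). Column totals in place of TMM also ended it, at -0.64 (edgeR adjusted p = 0.133). At 48 h the values were 24.5, 39.3, 45.8 and 26.1 CPM, inside the control range. In the order of group means CDH15 ran from 54.3 CPM at 12 h to 21.5 CPM at 24 h, and all 7 pairs of neighbours overlapped.

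MYOD1, which commits satellite cells to the muscle lineage and marks their activation, ran from 10.3 to 60.4 CPM in the controls, with a median of 26.6 CPM. At 4 h the libraries stood at 22.4, 42.9, 54.1 and 26.3 CPM, all inside that range. At 8 h they stood at 59.4, 45.4, 65.7 and 44.7 CPM, of which 1 exceeded the highest control. MYOD1 was called higher at 8 h by 0.85 ± 0.29 (edgeR adjusted p = 0.0140), a 1.81-fold change. Without 8 h replicate 3 the adjusted p by edgeR was 0.0575, and against the 3 controls the change was 0.60 ± 0.36 (edgeR adjusted p = 0.173). With the library sets as a term it was 0.49 and not called (edgeR adjusted p = 0.202).

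Values of MYOD1 then went down to 20 h. At 12 h they were 36.2, 29.9, 25.5 and 46.8 CPM, at 16 h 17.2, 18.2, 19.7 and 39.1 CPM, and at 20 h 15.1, 14.1, 19.8 and 17.5 CPM. The 20 h libraries had the smallest SD of all groups (16.6 ± 2.59 CPM, SD, n = 4) and lay within the range of the controls. No step between successive times from 8 to 20 h was called for MYOD1. Against control, 20 h was called lower by -0.84 ± 0.32 (edgeR adjusted p = 0.0268), and against the 3 controls by -1.09 ± 0.36 (edgeR adjusted p = 0.0169). That call ended with the library sets as a term (-0.31, edgeR adjusted p = 0.424), with column totals (-0.48, edgeR adjusted p = 0.196), and without control replicate 7 or any of 20 h replicates 1, 2 and 4. It also ended without set 2, by limma-voom and in a fit of the compared groups alone.

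Between 20 and 24 h MYOD1 rose 3.91-fold. The 24 h libraries held 64.0, 98.3, 35.6 and 62.0 CPM, each above all 20 h libraries. The log2 change was 1.97 ± 0.37 (edgeR adjusted p = 0.00252), in a comparison that uses no control as a reference. Without the 3 libraries of more than 20 M counts, 2 of which are 24 h libraries, the rise was 1.58 (edgeR adjusted p = 0.108), and with the sets as a term it was 1.17 (edgeR adjusted p = 0.145). In those fits 0.138% and 0.574% of all genes were called from 20 to 24 h. Against control the 24 h change was 1.13 ± 0.29 (edgeR adjusted p = 0.00149), with 3 of 4 libraries above every control, and 0.73 without those 3 libraries (edgeR adjusted p = 0.101). It was 0.88 ± 0.36 against the 3 controls and just missed the threshold (edgeR adjusted p = 0.0507). At 48 h MYOD1 stood at 44.6, 61.7, 53.3 and 49.2 CPM, still higher than in the 9 controls by 0.81 ± 0.29 (edgeR adjusted p = 0.0466). That call ended when any of the 48 h libraries (edgeR adjusted p of 0.0502 to 0.138) or any of control replicates 1, 3, 4, 5, 6 and 8 was left out, and against the 3 controls, at 0.56 ± 0.36 (edgeR adjusted p = 0.318). It ended as well with the sets as a term (0.53, edgeR adjusted p = 0.245), without set 3 and with the compared groups alone.

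MYOG encodes myogenin, which drives the terminal differentiation of myoblasts. Its control libraries ran from 41.0 to 89.0 CPM with a median of 63.0 CPM. At 4 h MYOG was at 90.7, 46.9, 41.5 and 60.1 CPM, close to that range. At 8 h it fell to 21.6, 28.0, 29.3 and 53.1 CPM, and 3 of the 4 libraries lay below every control. The log2 change from control was -1.01 ± 0.28 (edgeR adjusted p = 0.00286), and against the 3 controls, all of which were above all 8 h libraries, -1.08 ± 0.34 (edgeR adjusted p = 0.0128). The step from 4 to 8 h was also called, a fall of 0.86 ± 0.31 on the log2 scale (edgeR adjusted p = 0.0353), but not when 4 h replicates 1 or 4 or 8 h replicates 1, 2 or 3 were left out. Without set 2, which holds 3 of the 4 libraries at 4 h, it was -0.33 (edgeR adjusted p = 0.736), and with the sets as a term -0.26 (edgeR adjusted p = 0.917). Of all genes, 1.36% and 0% were called in that step by these fits. Column totals and a fit of the compared groups alone also ended the call.

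At 12 h MYOG was at 35.4, 51.6, 88.1 and 58.4 CPM, and the 16 h libraries held 30.6, 28.5, 57.3 and 83.5 CPM. The 20 h libraries were close together, at 59.8, 57.6, 67.1 and 63.3 CPM. No change from control was called at these 3 times, except at 16 h when 16 h replicate 4 was left out (-0.77, edgeR adjusted p = 0.0238). The step from 8 to 12 h, a change of 0.82 ± 0.31, did not pass (edgeR adjusted p = 0.0747) but did without 8 h replicate 4 or 12 h replicate 1. At 24 h the values were 115, 173, 122 and 138 CPM, above every control and above every library at every other time. MYOG was called higher at 24 h by 1.05 ± 0.25 (edgeR adjusted p = 0.000793), a 2.07-fold change, and against the 3 controls by 0.98 ± 0.35 (edgeR adjusted p = 0.0246). With the library sets as a term the change was 0.79 (edgeR adjusted p = 0.0718).

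From 20 to 24 h MYOG rose by 1.15 ± 0.31 (edgeR adjusted p = 0.0362). Leaving out any of the 20 h libraries, or 24 h replicates 2 or 4, ended that call, with an edgeR adjusted p of at most 0.120 and a change of at least 1.01. The call also ended without set 3 (0.93, edgeR adjusted p = 0.378), without set 2 (1.19, edgeR adjusted p = 0.152) and with the sets as a term (1.18, edgeR adjusted p = 0.165). Those fits called 0.138%, 1.16% and 0.574% of all genes in that step. At 48 h MYOG was at 100, 72.1, 82.0 and 52.6 CPM, all below the 24 h libraries, but the change of -0.84 ± 0.31 did not pass (edgeR adjusted p = 0.0534). It was called without 48 h replicate 1 (edgeR adjusted p = 0.0274), with the compared groups alone (edgeR adjusted p = 0.0467) and by DESeq2 (DESeq2 adjusted p = 0.0377). In the order of group means, 24 and 48 h were the only neighbours among 7 pairs whose libraries did not overlap.

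MYOD1 and MYOG were the 2 members called between 20 and 24 h, where 3.21% of all genes were called, and both had all 24 h libraries above all 20 h libraries, as 13.1% of all genes did not overlap between these times. Between 4 and 8 h, PAX7 and MYOG were called, both lower, against 31.3% of all genes. No member was called by edgeR from 8 to 12 h (12.1% of all genes), from 12 to 16 h (14.2%) or from 16 to 20 h (2.16%). At an unadjusted p under 0.05 edgeR gave 2, 1 and 0 members in those steps, and DESeq2 called 0, 1 and 0 after adjustment.

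At 8 h MYOD1 and MYOG moved in opposite directions, so the ratio of their counts in each library was taken, a quantity chosen after the values were seen and given with no p-value. MYOG counts were 0.964 to 8.09 times those of MYOD1 in the controls and 0.364 to 1.19 times at 8 h, where 3 of 4 libraries lay below every control. The mean log2 ratio at 8 h differed from that of the 9 controls by -2.04 and from that of the 3 controls by -1.90. At 20 h the ratio lay in a narrow band, 3.38 to 4.09, and at 24 h, when both genes were high, it was 1.76 to 3.43.

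**Figure D2:**
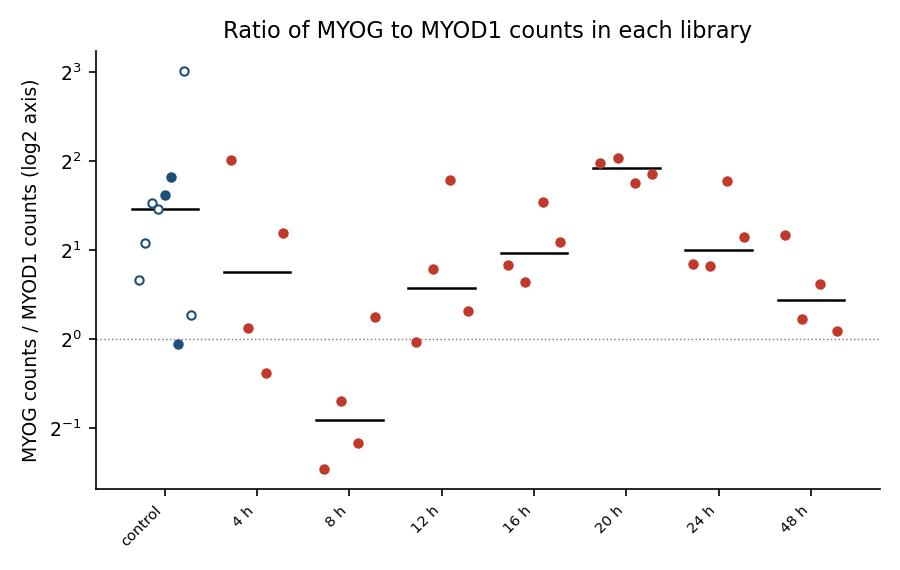
Ratio of MYOG to MYOD1 counts in each library by group on a log2 axis, with the group median (line) and a dotted line at equal counts; open circles are the 6 controls low in HOXC8. The lowest points are 3 of the 4 libraries at 8 h, at 0.364 to 0.618, while the remaining one is at 1.19, and those at 20 h lie close together at 3.38 to 4.09.

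MYF6, also known as MRF4, showed the longest rise of the members. Its controls ran from 90.2 to 311 CPM with a median of 242 CPM. At 4 h it was at 216, 313, 418 and 362 CPM, 3 of them above every control, and the change of 0.64 ± 0.24 did not pass (edgeR adjusted p = 0.0542), though it did by DESeq2 and without 4 h replicate 1 or control replicates 2, 4 or 5. At 8 h all 4 libraries, at 459, 488, 471 and 459 CPM, lay above every control, and MYF6 was called higher by 1.16 ± 0.23 (edgeR adjusted p = 0.000110).

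From 8 to 24 h no MYF6 library overlapped the controls. At 12 h the libraries held 426, 408, 377 and 385 CPM and the change was 0.93 ± 0.23 (edgeR adjusted p = 0.00351). At 16 h they held 836, 711, 659 and 504 CPM, the highest mean of all groups, and the change was 1.69 ± 0.23 (edgeR adjusted p = 8.5e-07), a 3.23-fold rise. The step from 12 to 16 h, with no overlap between the times, was 0.76 ± 0.28 and missed the threshold (edgeR adjusted p = 0.0668). DESeq2, column totals and a fit of the compared groups alone each called it. All 4 libraries from 16 h were in set 1 and none from 12 h was, so time and set cannot be told apart in that step.

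At 20 h MYF6 was at 404, 639, 667 and 589 CPM, a change of 1.45 ± 0.23 (edgeR adjusted p = 7.24e-06). At 24 h it was at 553, 331, 337 and 437 CPM, a change of 0.98 ± 0.23 (edgeR adjusted p = 0.000716). By 48 h the values of 236, 111, 250 and 189 CPM lay inside the control range, and the change was -0.10 ± 0.24 (edgeR adjusted p = 0.821). The fall from 24 to 48 h, of 1.08 ± 0.29 on the log2 scale, was the only call among the members in that step (edgeR adjusted p = 0.00787), where 19.5% of all genes were called. Without 48 h replicates 2 and 4, which lay apart from replicates 1 and 3 in earlier work on these data, it was -0.77 (edgeR adjusted p = 0.184). MYF6 was called against the 3 controls at the same 5 times, from 8 to 24 h, with log2 changes from 1.11 to 1.87 and no overlap of libraries.

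**Figure D3:**
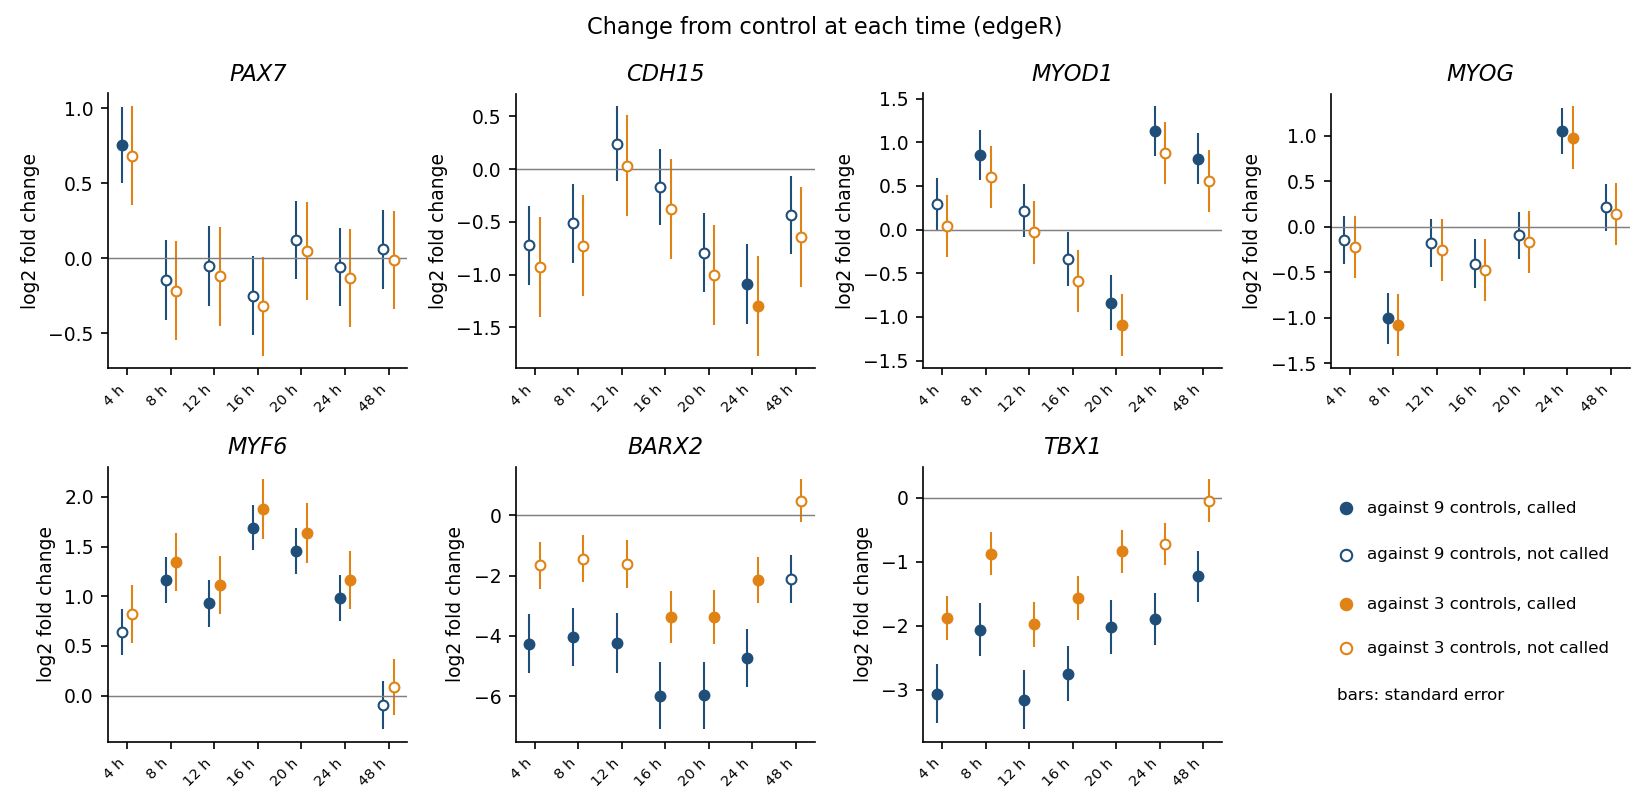
Log2 fold change from control (points, with standard errors) at each time for the 7 genes, against all 9 controls (blue) and against the 3 controls high in HOXC8 (orange); filled points passed an edgeR adjusted p of 0.05. MYF6, MYOG and CDH15 differ little between the references, while BARX2 and TBX1 lie closer to 0 against the 3 controls.

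BARX2, a homeobox factor found with Pax7 in mouse satellite cells, was unevenly expressed in the controls. It was at 34.2 CPM in control replicate 2 and at 20.6 CPM in replicate 9, while the other 7 controls ran from 0.659 to 5.23 CPM. Replicates 2 and 9 are the controls low in both HOXC8 and HOXA10, and IRX5, a homeobox gene of patterning, was at 23.5 and 5.70 CPM in them against at most 3.07 CPM in the other controls. Control replicates 5, 6 and 7 had 1.85, 1.37 and 0.659 CPM of BARX2. Every row of the count table reaches at least 101 counts in some library. BARX2 did so only in control replicates 2 and 9, with 375 and 228 counts, and its highest count in an injured library was 42. Its row is thus present through controls in which it is high, so calls that use those controls are not free of that selection.

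After injury BARX2 was near the limit of detection. The 4 h libraries held 0.572, 0.306, 0.409 and 0.329 CPM, those at 8 h 0.452, 0.521, 0.168 and 0.772 CPM, and those at 12 h 0.293, 0.292, 0.504 and 0.573 CPM. At 16 h the 4 libraries held 7 counts in all (exact Poisson 95% interval 2.81 to 14.4), and at 20 h they held 6 (2.20 to 13.1). The 16 h values of 0.191, 0.127, 0 and 0.137 CPM and the 20 h values of 0.280, 0.155, 0.0699 and 0 CPM were each at or under 3 counts. At 24 h BARX2 was at 0.651, 0.257, 0 and 0.252 CPM. Except for 1 library at 8 h, all libraries from 4 to 24 h were below every control.

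The fitted log2 changes of BARX2 against 9 controls were -4.25 ± 0.97 at 4 h, -4.04 ± 0.95 at 8 h and -4.23 ± 0.98 at 12 h, and all 3 were called (highest edgeR adjusted p = 0.00325). By limma-voom those at 4 and 12 h were not (limma-voom adjusted p of 0.0701 and 0.0640), and with the library sets as a term neither was. Without set 2 the change at 4 h was not called either (-4.23, edgeR adjusted p = 0.203). Of all genes, 6.99% were called at 4 h without set 2 and 2.75% with the sets as a term. At 16, 20 and 24 h the changes against 9 controls were -5.99 ± 1.10, -5.97 ± 1.12 and -4.75 ± 0.97, also called, though counts this low leave their size uncertain. The changes at 4, 8 and 12 h against the 3 controls were -1.65, -1.44 and -1.63 and did not pass (edgeR adjusted p of 0.130 to 0.192). Those at 16, 20 and 24 h were -3.38, -3.37 and -2.14 and were called (edgeR adjusted p of 0.00301, 0.00442 and 0.0248). At 48 h BARX2 was at 0.674, 2.08, 0.540 and 4.06 CPM. That is a change of -2.12 ± 0.80 against 9 controls (edgeR adjusted p = 0.0571) and of 0.48 ± 0.70 against 3 (edgeR adjusted p = 0.690). The former rested on single libraries. Without control replicate 2 it was -1.34 (edgeR adjusted p = 0.181), and without 48 h replicate 4 it was -2.88 and called (edgeR adjusted p = 0.0210). Without 48 h replicates 2 and 4 it was -3.67 (edgeR adjusted p = 0.0162). It also became a call without any of control replicates 1, 5, 6, 7 and 8, and by DESeq2. The highest of the 48 h libraries, replicate 4, also had the highest IRX3 of the injured libraries, at 52.0 CPM.

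TBX1, a T-box factor of the muscles of the pharyngeal arches, also had its highest values in control replicates 2 and 9, at 51.0 and 27.2 CPM. Control replicates 1, 3, 4 and 8 ran from 11.1 to 17.4 CPM and replicates 5, 6 and 7 from 5.41 to 9.56 CPM. All 6 controls low in HOXC8 were thus above the other 3. At 4 h TBX1 was at 2.86, 1.83, 1.81 and 1.87 CPM, below every control, and the change was -3.06 ± 0.46 (edgeR adjusted p = 4.66e-05). It was -1.88 ± 0.35 against the 3 controls, still called (edgeR adjusted p = 0.00433).

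At 8 h TBX1 was at 4.88, 2.34, 3.27 and 6.29 CPM, with 1 library inside the control range. At 12 h it was at 2.44, 2.14, 2.02 and 1.15 CPM, the lowest mean of all groups, and the change was -3.16 ± 0.46 (edgeR adjusted p = 1.18e-05). Values of 2.80, 2.54, 2.11 and 2.89 CPM at 16 h and of 5.31, 5.21, 4.40 and 2.32 CPM at 20 h were all below the controls. The 24 h libraries stood at 5.43, 5.98, 2.36 and 4.79 CPM, 2 of them inside the control range, and those at 48 h at 6.01, 6.98, 7.33 and 9.46 CPM. All 48 h libraries were above all 24 h libraries, though that step was not called (0.67 ± 0.44, edgeR adjusted p = 0.304).

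Against 9 controls TBX1 was called lower at all 7 times, as were 122 of 9411 genes (1.3%). The change shrank from -3.16 at 12 h to -1.23 ± 0.40 at 48 h (edgeR adjusted p = 0.0261), and the call at 48 h ended without control replicate 2, at -0.83 (edgeR adjusted p = 0.0647), and without 48 h replicates 1, 2 or 3. Column totals, limma-voom and a fit of the compared groups alone ended it too. Against the 3 controls TBX1 was called at 4, 8, 12, 16 and 20 h, with changes between -1.97 and -0.84. It was not called at 24 h (-0.72 ± 0.33, edgeR adjusted p = 0.0811), nor at 48 h (-0.05 ± 0.33, edgeR adjusted p = 0.947). The part of position in the changes of BARX2 and TBX1 was not tested.

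**Figure D4:**
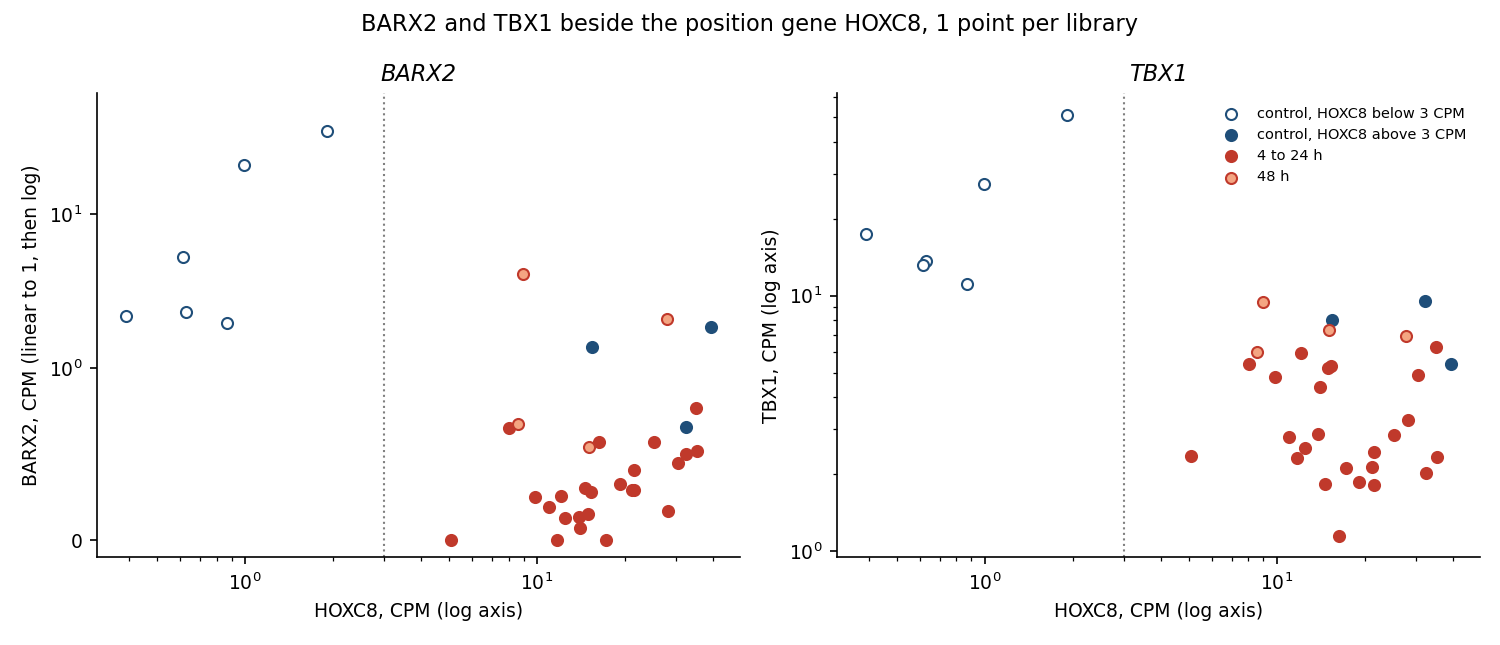
BARX2 (left) and TBX1 (right) against HOXC8 in each of 37 libraries, all in CPM, with HOXC8 and TBX1 on logarithmic axes, BARX2 linear to 1 CPM and logarithmic above, and a dotted line at 3 CPM of HOXC8. The 6 controls left of the line hold the highest values of TBX1, 11.1 to 51.0 CPM, and the 2 highest of BARX2.

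Across all 37 libraries log2 CPM of BARX2 and TBX1 correlated with r = 0.82, and with r = 0.76 after each group's mean was taken out. These libraries share groups, controls and possibly animals, so the value is a description. PAX7 and MYOD1 correlated with r = 0.25 over all libraries and 0.50 within groups. The genes most like MYF6 by Pearson correlation of log2 CPM over the 37 libraries were WDR4 (0.90), CTSV (0.89) and PRMT5 (0.88). Those most like MYOG were CGRRF1, SPART and TMEM60 (each 0.84). TBX1 was nearest to LAPTM4B (0.88), BRD3 (0.87) and TPPP (0.85), and BARX2 to NUDT7, LGI1 and DHRS4 (each 0.87). CDH15 was nearest to GNB1L (0.81), STK25 (0.80) and MRPL12 (0.79). PAX7 and MYOD1 had no gene as close, the nearest being SEMA4B (0.63), ZNF385D (0.61) and SERTAD2 (0.59) for PAX7 and FAM98C (0.60), TMEM220 (0.59) and POPDC3 (0.59) for MYOD1.

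Genes around the members in the pathway were read from lists chosen with earlier results known, and values here are against 9 controls unless the 3 are named. The median log2 change of all genes tested was -0.07 at 8 h and -0.02 at 24 h, and 54% and 53.9% of them were called. Of 20 tested genes for activation and growth signals of satellite cells, 5 were higher and 2 lower at 4 h, 11 and 6 at 8 h, and 1 and 1 at 48 h. Their median log2 change at 8 h was 0.81, and against the 3 controls 10 were higher and 5 lower then. IL6R, a receptor subunit for interleukin-6, was at 25.1 ± 5.15 CPM (SD, n = 9) in the controls and at 219 ± 69.6 CPM (SD, n = 4) at 16 h, a log2 change of 3.12 ± 0.29 (edgeR adjusted p = 1.4e-09). STAT3, its signal transducer, was at 82.1 ± 14.1 CPM in the controls and at 633 ± 130 CPM at 8 h, a change of 2.95 ± 0.26 (edgeR adjusted p = 5.5e-10). IGF1R, the receptor for insulin-like growth factor, was higher at 16 h by 0.78 ± 0.19 (edgeR adjusted p = 0.00089), at 20 h by 1.39 ± 0.18 (edgeR adjusted p = 6.6e-07) and at 24 h by 1.43 ± 0.18 (edgeR adjusted p = 3.1e-07). It was thus about as high at 20 h, when MYOD1 was at its lowest mean, as at 24 h, and a link to MYOD1 was not tested. Against the 3 controls IL6R at 16 h, STAT3 at 8 h and IGF1R at all 3 of these times were also called higher (highest edgeR adjusted p = 0.00042).

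Of 24 tested genes of the satellite cell surface and niche, 4 were higher and 8 lower at 8 h (median -0.37) and 8 and 10 at 24 h (median -0.28). Against the 3 controls 4 were higher and 4 lower at 8 h (median -0.08), and 6 and 4 at 24 h (median -0.08). HES1, a Notch target linked to rest in mouse satellite cells, was lower at 24 h by -3.01 ± 0.48 (edgeR adjusted p = 7.3e-06) and against the 3 controls by -2.44 (edgeR adjusted p = 0.0012). NCAM1, carried by satellite cells and denervated fibres, was at 88.9 ± 62.3 CPM at 48 h against 24.2 ± 13.3 CPM in the controls, a change of 1.88 ± 0.33 (edgeR adjusted p = 0.00019), and of 1.48 ± 0.45 against the 3 controls (edgeR adjusted p = 0.036).

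Of 21 tested partners of the myogenic helix-loop-helix factors, 4 were higher and 7 lower at 8 h (median -0.07), and 2 and 10 at 24 h (median -0.55). MEF2C, which acts with MYOD1 and MYOG on muscle promoters, was lower at 8 h by -1.40 ± 0.28 (edgeR adjusted p = 0.00013) and at 24 h by -0.79 ± 0.27 (edgeR adjusted p = 0.015). Of 13 tested inhibitors, 5 were higher and 3 lower at 8 h (median 0.53). SNAI1, which blocks access of MYOD1 to differentiation genes in mouse, was higher by 2.65 ± 0.37 there (edgeR adjusted p = 9.4e-07), and BHLHE41, a repressor, was lower by -2.0 ± 0.26 (edgeR adjusted p = 2.8e-07). The calls of MEF2C, SNAI1 and BHLHE41 were also made against the 3 controls (highest edgeR adjusted p = 0.035). Against those 3, partners gave 3 higher and 7 lower at 8 h (median -0.32), and 2 and 8 at 24 h (median -0.44). Inhibitors gave 2 higher and 2 lower at 8 h (median 0.34).

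**Figure D5:**
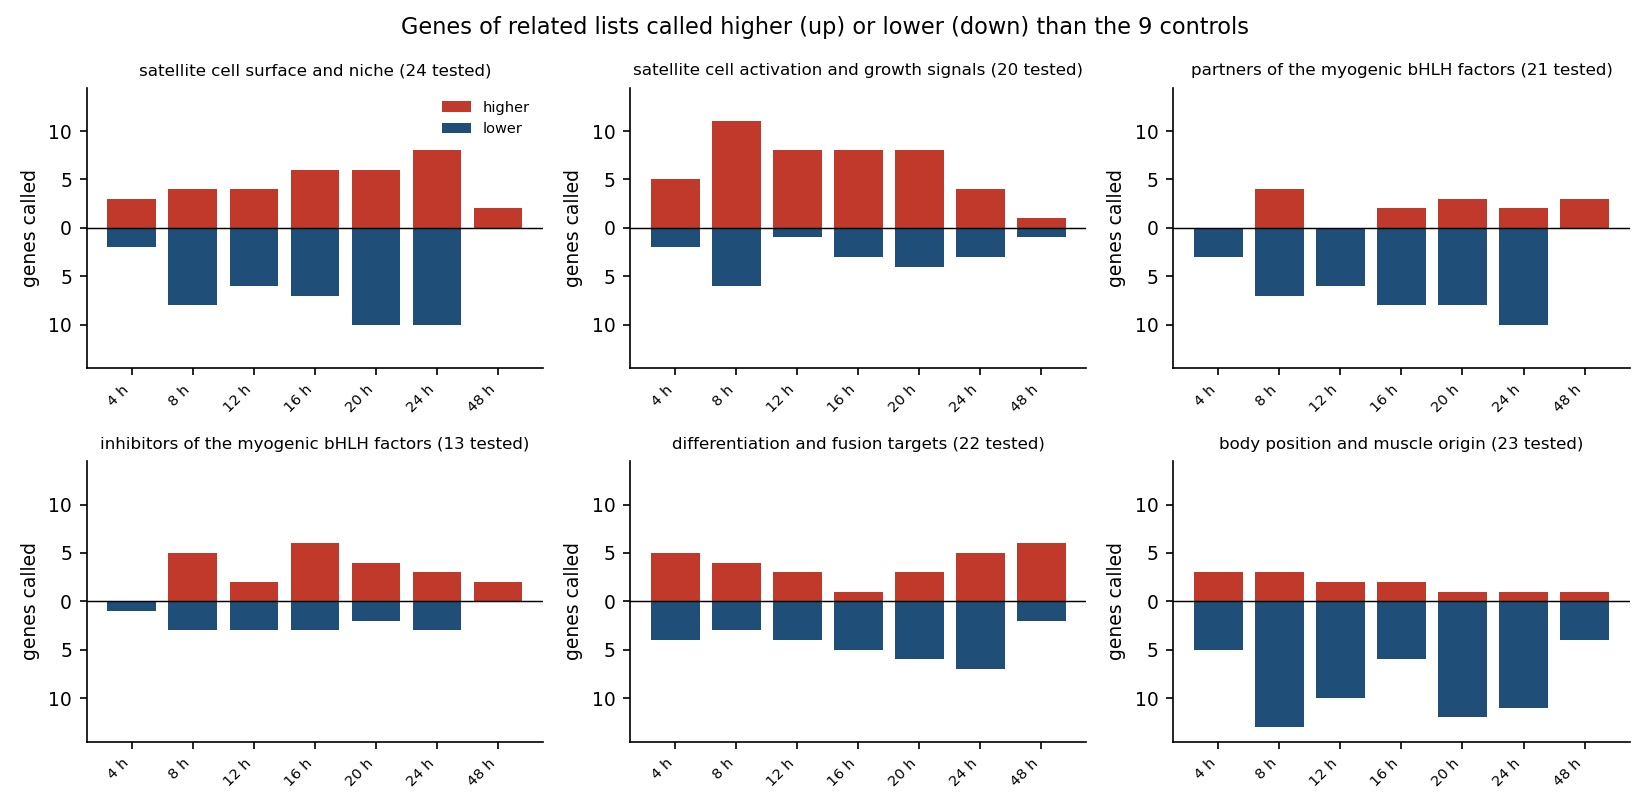
Numbers of genes called higher (upward bars) or lower (downward bars) than the 9 controls at each time in 6 related lists, by edgeR adjusted p under 0.05; the number tested is in each title. Activation and growth signals reach 11 higher at 8 h, and partners of the myogenic factors reach 10 lower at 24 h.

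Of 22 tested differentiation and fusion targets, 4 were higher and 3 lower at 8 h (median -0.07) and 5 and 7 at 24 h (median -0.17), when MYOG was highest. Against the 3 controls 4 were higher and 0 lower at 8 h (median -0.29), and 2 and 6 at 24 h (median -0.20). CHRND, a subunit of the acetylcholine receptor and a target of the myogenic factors, was higher at 8 h by 2.80 ± 0.42 (edgeR adjusted p = 2.9e-06). CHRNA1, another subunit, was not called at 24 h (-0.22 ± 0.39) and was called at 48 h (2.07 ± 0.36, edgeR adjusted p = 0.00017). Both calls were also made against the 3 controls (edgeR adjusted p of 0.0047 and 0.016). MYOZ2, a slow fibre protein, was lower than the 9 controls at 24 h by -2.89 ± 0.68 (edgeR adjusted p = 0.00071), but against the 3 controls its change was -0.16 (edgeR adjusted p = 0.82). MYH3, the embryonic myosin of regenerating fibres, was at 16.2 ± 2.08 CPM at 24 h and 25.8 ± 17.2 CPM in the controls, a change of -0.67 ± 0.42 that was not called (edgeR adjusted p = 0.18). Against the 3 controls it was -1.36 ± 0.44 and called lower (edgeR adjusted p = 0.016). At 20 h MYH3 was called lower than the 9 controls (-1.02, edgeR adjusted p = 0.048) and the 3 (-1.71, edgeR adjusted p = 0.0045).

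Other cell types moved at the times at which the members did. At 8 h, when MYOG was low and MYOD1 high, 6 of 6 neutrophil and 11 of 18 macrophage markers were higher than in the 9 controls and 9 of 14 fibroblast markers lower. Against the 3 controls these counts were 5, 10 and 8. Summed fibroblast markers ran from 1147 to 3724 CPM at 8 h against 2510 to 9347 CPM in the controls. Summed neutrophil markers ran from 18.1 to 298 CPM at 8 h against 1.37 to 12.3 CPM in the controls. At 24 h, when MYOD1 and MYOG were high, 4 of 6 neutrophil and 15 of 18 macrophage markers were higher, and against the 3 controls 5 and 13 were. Summed macrophage markers ran from 587 to 2446 CPM at 24 h, from 529 to 1499 CPM at 20 h and from 117 to 286 CPM in the controls. All 12 slow fibre markers were lower at 8, 16, 20 and 24 h, and against the 3 controls 0, 6, 1 and 6 of them were. Of 11 tested fast fibre markers, 1 was higher than in the 9 controls at 8 h, and 1, 1 and 2 were lower at 16, 20 and 24 h. Against the 3 controls 1, 7, 4 and 11 of them were lower at 8, 16, 20 and 24 h. Summed slow fibre markers ran from 5805 to 8767 CPM at 24 h, from 11257 to 144410 CPM in the controls, and no marker of these lists was at 0 throughout a group. Their part in the changes of the members was not tested.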

How the data were processed

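Total RNA of flash-frozen muscle was made into libraries with the NEBNext Ultra kit and read as 150 bp pairs, per the labels' protocols. The submitters' processing notes name FastQC, MultiQC, Trimmomatic, HISAT2 2.2.1, HTSeq and Sscrofa11.1. They state neither an annotation release nor a strand setting. The authors deposited raw counts per gene symbol in 1 table of 9418 rows and 37 columns, each matched to a sample by its title. Every row reaches at least 101 counts in some library, so the table is a selection of genes, and its totals of 9.86 to 22.9 M are lower bounds of the depth. Intervals and floors cover counting error only.

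The counts were scaled by TMM in edgeR 4.0.16 (R 4.3.3, limma 3.58.1), which kept 9411 genes by filterByExpr and fitted robust quasi-likelihood models to all 37 libraries with group as the only factor. Benjamini-Hochberg adjustment ran over all genes tested, with a threshold of 0.05. CPM for correlations used a prior count of 2. The ratio of MYOG to MYOD1 counts was chosen after the values were seen and is read as a description. An exact permutation over libraries was run on it. Its p-values enter only the total of values that kept their side of the threshold with a library left out. At 8 h that permutation passed 0.05 against the 9 controls but not against the 3, which allow only 35 splits. As the ratio was chosen from the values at 8 h, the result at that time is no independent support. Code was tested on simulated counts. No 2 libraries of a group agreed within sampling noise (lowest chi-square per degree of freedom 16.1).

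The 7 genes and all lists were chosen with earlier results of these data known. All members with a row are named, as are up to 4 genes of another list, taken from those with the smallest p over the 8 groups, and the 3 genes most correlated with each member. Some genes that this rule picks are not reported here. Alternatives were RLE size factors, column totals, no filter, DESeq2 1.42.0, limma-voom, the groups compared alone, a replicate block, the library sets as a term and each library left out. Fits without set 2, set 3 or 48 h replicates 2 and 4, and fits with the 3 controls high in HOXC8 (3 CPM or more, a value placed in a gap) were chosen after the data were seen. Gene spans are from a RefSeq table of Sscrofa11.1. No sequences are shown.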

Additional observations from a re-analysis of the deposited data

Results flagged for a closer look

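In 56 groups of libraries (7 genes in 8 groups), 3 single libraries stood apart by Dixon's test at the 95% level, and chance marks about 1 in 20 groups. At 16 h, MYOD1 was at 39.1 CPM in replicate 4, with the next library at 19.7 CPM. TBX1 was at 51.0 CPM in control replicate 2, with the next control at 27.2 CPM. That library also had the highest BARX2, at 34.2 CPM. At 4 h, TBX1 was at 2.86 CPM in replicate 1, with the next library at 1.87 CPM, both below every control.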

How the results depend on the processing

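No call of a member turned its direction under any alternative run. Shares in brackets are those of all genes called in the same fit and comparison. Leaving out set 3 gave 0 members called from 20 to 24 h (0.138%). It gave 1 at 48 h (18.5%) and 1 from 4 to 8 h (31.1%). Leaving out set 2 gave 1 from 20 to 24 h (1.16%), 1 at 4 h (6.99%) and 0 from 4 to 8 h (1.36%). With the library sets as a term 0 were called from 20 to 24 h (0.574%) and from 4 to 8 h (0%). There was 1 each at 4 h (2.75%) and 48 h (11.8%). The 0 from 4 to 8 h in that fit is thus not particular to the members. Column totals gave 1 from 12 to 16 h (17.1%), 1 at 48 h (35.6%) and 1 from 4 to 8 h (23.4%). Fits of only the groups compared gave 1 from 12 to 16 h (15.1%) and 2 from 24 to 48 h (9.63%). They gave 0 at 48 h (9.98%) and 0 from 4 to 8 h (21.2%). DESeq2 called 1 from 12 to 16 h (17.8%) and 3 from 24 to 48 h (23%), and limma-voom 1 at 48 h (20.3%). Without 48 h replicates 2 and 4, 0 were called from 24 to 48 h (5.85%). Against the 3 controls there were 1 at 4 h (6.95%), 3 at 8 h (43.4%) and 0 at 48 h (10.3%). With 1 library left out at a time the counts ran from 0 to 1 from 8 to 12 h, from 1 to 2 from 20 to 24 h, from 1 to 3 from 24 to 48 h, from 0 to 3 at 48 h and from 0 to 2 from 4 to 8 h. Apart from fewer libraries or samples in some of these fits, the cause was not tested. Shares over all genes are not given for fits with 1 library left out. RLE size factors and no filter left every count within 1.5 times its value.

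The replicate block gave 1 member from 12 to 16 h (MYF6) and 2 from 24 to 48 h (MYF6 and BARX2). In these steps 16.2% and 19.6% of all genes were called. The block also called TBX1 higher from 4 to 8 h (1.02, edgeR adjusted p = 0.0482) and BARX2 lower at 48 h (-2.33, edgeR adjusted p = 0.0215). It ended the calls of PAX7 at 4 h (0.62, edgeR adjusted p = 0.164) and of MYOD1 at 48 h (0.83, edgeR adjusted p = 0.0589). Deviations from the group means had a median r of 0.04 over 112 pairs of libraries with the same number, 42 of them above 0.1. For libraries with other numbers the median r was -0.01 over 336 pairs, 114 of them above 0.1. Such values cannot tell whether libraries with the same number come from the same animal.

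Of 1044 values of single genes under settings other than leaving out a library, 926 kept their direction and their side of the threshold. Of 1323 values with a library left out, 1212 did. The latter include the ratio of MYOG to MYOD1, read here by exact permutation over libraries. Column totals gave a median log2 change of all genes of -0.18, -0.13, -0.04, 0.31, 0.29, 0.46 and 0.34 against control, in order of time, so that changes are read on the scale set by TMM. CDH15 over the 8 groups was close to the threshold and not called when most single libraries were left out, with column totals, the sets as a term or the replicate block, or without 48 h replicates 2 and 4. At 16 and 20 h BARX2 had at most 3 counts in each library, and a further fall was not detectable at this depth.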
